A study of Mus musculus with 6 samples.

Results

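The genes described here encode the zinc-dependent proteases that cut cell-surface proteins and extracellular matrix, the ADAM, ADAMTS and MMP families, together with the ADAMTS-like proteins and the TIMPs, which inhibit these enzymes. Members were found by gene symbol, among probe sets annotated to a single gene, and each gene was read from the probe set with its highest mean over 6 arrays. This gave 83 of 19937 genes on the array, of which 34 were ADAM, 18 ADAMTS, 5 ADAMTS-like, 22 MMP and 4 TIMP genes. They were measured in mouse gonads at E13.5, dissected without the mesonephros. Wild-type gonads (arrays 1, 2 and 5; 6 gonads pooled for each) were compared with gonads of genotype Sox9flox/flox; Sf1:creTr/+ (arrays 3, 4 and 6; 12 gonads pooled for each), called the Sox9 mutant, so that pool size went with genotype. Both groups came from C57BL6/J animals crossed with 129. In the mutant, a Cre transgene driven by Sf1 (Nr5a1) sequence, active in somatic cells of the gonad and the adrenal, acts on floxed Sox9; neither the Cre alone nor the floxed alleles alone were among the groups. Whether pools within a group derived from different litters is not stated in the labels, so p-values measure the spread between these pools, which may be partly technical.

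ADAM proteins sit in the cell membrane and release the outer parts of growth factors, adhesion proteins and Notch receptors, whereas ADAMTS enzymes are secreted and cut proteoglycans such as versican and the ends of procollagens. MMPs cut collagens, basement membrane and other matrix proteins, some of them anchored in the membrane, and TIMPs bind MMPs and several ADAM and ADAMTS enzymes in their active sites. In the fetal testis, cords of Sertoli cells wrapped in basement membrane are set up under SOX9, while the fetal ovary forms no such cords at this stage. The comparison asks which of these proteases and inhibitors differ when Cre acts on floxed Sox9 in the somatic gonad.

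The arrays give RMA values, a log2 scale of probe set brightness, on which 1 log2 is a doubling. A value of 6.67 log2, under which 95% of olfactory and vomeronasal receptor probe sets lie, was taken as a mark of background. Sox9 itself fell by 1.31 ± 0.14 log2 (SE, limma adjusted p = 0.00124). It still read 7.52, 7.78 and 7.60 log2 on mutants 3, 4 and 6, above the mark. The labels do not name the floxed exons. Of 10 Sertoli markers 8 fell, Sox9 among them, with list means of 9.61 to 9.66 log2 on wild-type arrays and 6.89 to 8.17 on mutant arrays, and all 4 measured Leydig markers fell (10.85 to 10.93 and 6.33 to 8.85). The 3 measured interstitial markers, Pdgfra, Nr2f2 and Tcf21, fell too (11.31 to 11.33 and 10.21 to 10.65), while all 7 pregranulosa markers rose (7.32 to 7.49 and 9.15 to 9.33), as did 4 of 5 meiotic germ cell markers (5.73 to 6.49 and 8.24 to 9.71). In a whole gonad, fewer cells of a type and less RNA per cell cannot be told apart, and the part of these marker shifts in the differences below was not tested. No gene of these 5 lists had a mean over all 6 arrays below the background mark, but some lay below it in 1 group. Among them were Stra8, Sycp3 and Meioc in wild type (5.08, 6.50 and 5.36 log2). In the mutant, Cst9, Hsd17b3 and Hsd3b1 lay below it (6.41, 5.99 and 5.78). Of 5 endothelial markers, list means were 8.87 to 9.01 in wild type and 8.68 to 8.94 in the mutant, and none was called. Kdr (0.38 log2), Cdh5 (-0.28) and Tek (-0.40) had an unadjusted p under 0.05, in different directions. So did 4324 of all 19937 genes. Of 5 macrophage markers, at 6.54 to 6.68 and 6.40 to 6.60, none was called either, nor had an unadjusted p under 0.05, and Adgre1, Ptprc and Lyz2 lay below the mark. Of 5 mesonephric markers 2 rose, Gata3 by 1.20 and Emx2 by 1.61 log2, and 1 fell, Lhx1 by 0.96. Pax2 and Pax8 were not called. The list means were 7.15 to 7.26 log2 on wild-type arrays and 7.60 to 7.73 on mutant arrays. Whether the pools held mesonephric tissue was not tested. Some arrays stood apart. On wild type 5 the liver genes Afp, Alb, Apoa1 and Ttr measured 8.21 to 11.42 log2, against 5.60 to 7.25 on the other 5 arrays. On mutant 3, Xist, transcribed from the inactive X chromosome of female cells, measured 7.29 log2 against 4.97 to 5.48 elsewhere, while the Y-linked genes Eif2s3y, Kdm5d and Uty measured 7.98 to 9.77 on all 6. The labels give no embryo sex, and whether the pool of mutant 3 held XX gonads was not tested; without that array the same members were called but for Mmp2. Mutant 4 kept the highest Sertoli and Leydig marker means of the 3 mutants, 8.17 and 8.85. Calls that depended on these arrays are given with and without them.

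Of the 83 genes 6 passed the test, a limma adjusted p under 0.05 over all probe sets. Adamts19 and Adam22 rose in the mutant, and Adamts5, Timp1, Adam12 and Mmp2 fell. The 2 that rose are 2.41% of the members, where 2.64% of all genes rose, and the 4 that fell are 4.82%, where 4.3% of all genes fell, so the shares called were near those of the whole array. Over all 6 arrays, 41 members had a mean above the background mark and 42 below it, a split that the differences themselves can move: Adam22 passed the mark through its mutant values alone. The 42 below the mark gave no call, where 1.99% of all genes below it were called. An unadjusted p under 0.05 was found for 7 of the 42, and for 677 of all 6935 genes below the mark. Among the 41 above it, 2 rose (4.88%, against 3.47% of all genes above the mark) and 4 fell (9.76%, against 6.11%). Mutant and wild-type values did not overlap for 15 members higher in the mutant (18.1%, against 12.1% of all genes) and 9 lower (10.8%, against 16.6%). Of those 15, 9 lay below the background mark (21.4% of the 42, against 10.1% of all genes below the mark). Among the 41 members above the mark, 6 were higher (14.6%, against 13.3% of all genes above it) and 8 lower (19.5%, against 23.2%). The median difference was 0.06 log2 over the members and 0.00 over all genes, and above the mark it was -0.03 and -0.04; 77 members differed by less than 1.5-fold. Adamts19, Adamts5 and Timp1 were called whichever 1 array was left out, and without wild type 5 and mutant 4 together, with adjusted p up to 0.041.

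**Figure D1:**
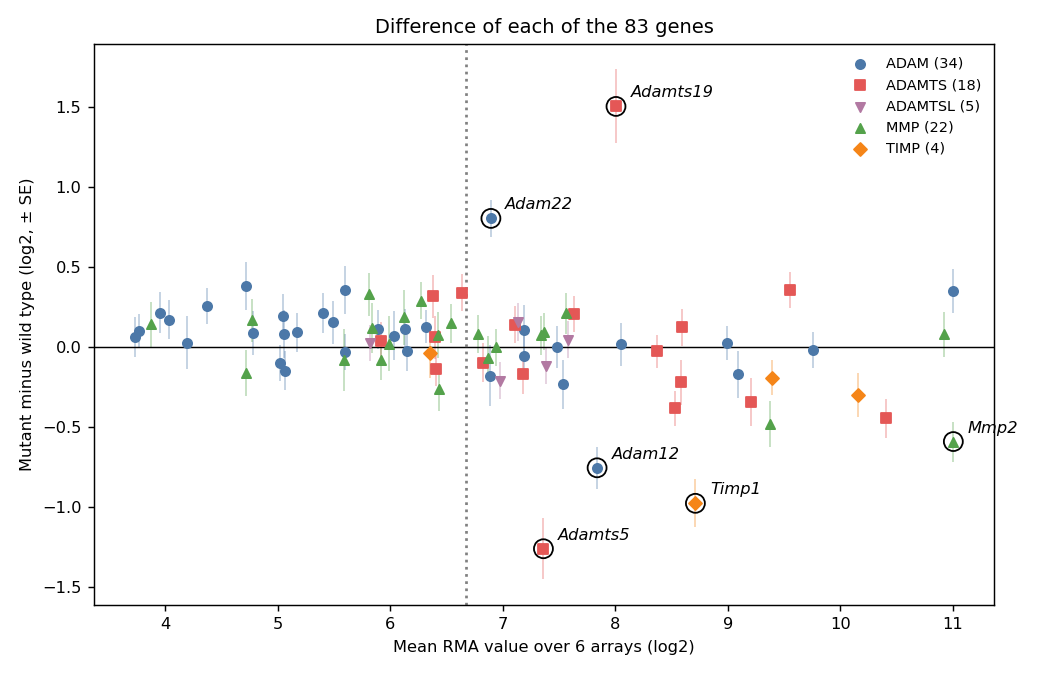
Mutant minus wild-type difference (log2, bars are SE) against the mean RMA value over 6 arrays for each of the 83 genes, by family, with the 6 called genes circled and the background mark of 6.67 log2 dotted. Called differences run from -1.26 log2 (Adamts5) to 1.51 log2 (Adamts19); Adam22 lies to the right of the mark through its mutant values, its wild-type values (6.35 to 6.60) being below it.

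Promoter sequences from RefSeq (GRCm38.p6; 250 bases before to 50 after a start site) were held for 52 of the 83 genes, among them 2 of the 6 called, Timp1 and Adam22. Those are printed below because the genes moved in opposite directions, and that of Adamts9 because it fell at some of its probe sets. The promoters of Mmp13 and Mmp10 show a motif found in a minority of members, most of them neighbouring MMP genes. The motifs were searched on both strands, AP-1 (TGANTCA), a SOX core (AACAAT) and the NR5A1 site (CAAGGTCA), and matches of different motifs may overlap. Capitals mark the SOX core in Timp1 and the AP-1 motif in Mmp13 and Mmp10; Adam22 and Adamts9 hold no match in this window.
Timp1, chrX:20869916-20870215, plus strand: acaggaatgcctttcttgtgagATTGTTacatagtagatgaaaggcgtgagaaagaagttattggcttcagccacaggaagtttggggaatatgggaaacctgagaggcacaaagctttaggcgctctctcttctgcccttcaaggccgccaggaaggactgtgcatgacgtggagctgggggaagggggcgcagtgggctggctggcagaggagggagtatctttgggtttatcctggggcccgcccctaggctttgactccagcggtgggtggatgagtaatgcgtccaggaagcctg
Adam22, chr5:8368111-8368410, minus strand: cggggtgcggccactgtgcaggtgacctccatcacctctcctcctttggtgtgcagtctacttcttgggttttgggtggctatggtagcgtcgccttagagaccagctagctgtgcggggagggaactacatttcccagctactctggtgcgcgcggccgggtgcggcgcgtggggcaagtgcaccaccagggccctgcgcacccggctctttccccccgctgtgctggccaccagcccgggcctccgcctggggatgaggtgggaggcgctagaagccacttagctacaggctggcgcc
Adamts9, chr6:92943485-92943784, minus strand: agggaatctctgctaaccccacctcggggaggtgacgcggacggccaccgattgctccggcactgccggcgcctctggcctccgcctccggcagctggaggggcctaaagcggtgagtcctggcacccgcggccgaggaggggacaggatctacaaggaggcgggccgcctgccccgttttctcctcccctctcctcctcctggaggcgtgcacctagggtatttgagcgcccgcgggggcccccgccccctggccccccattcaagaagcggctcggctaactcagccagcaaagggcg
Mmp13, chr9:7272264-7272563, plus strand: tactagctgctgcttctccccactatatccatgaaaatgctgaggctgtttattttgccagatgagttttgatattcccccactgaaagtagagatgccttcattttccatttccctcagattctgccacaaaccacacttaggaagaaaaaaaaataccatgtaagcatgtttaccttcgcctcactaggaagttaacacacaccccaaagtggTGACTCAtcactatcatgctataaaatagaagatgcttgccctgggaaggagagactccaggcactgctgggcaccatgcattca
Mmp10, chr9:7502092-7502391, plus strand: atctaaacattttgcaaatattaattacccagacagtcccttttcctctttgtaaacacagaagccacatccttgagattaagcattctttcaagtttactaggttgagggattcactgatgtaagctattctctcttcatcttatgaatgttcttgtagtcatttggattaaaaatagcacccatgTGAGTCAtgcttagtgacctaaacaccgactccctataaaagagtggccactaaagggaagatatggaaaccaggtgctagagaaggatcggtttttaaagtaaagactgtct
The AP-1 motif was present in 13 of 57 member promoters (22.8%), against 7.81% of 32851 promoters of all genes. It was found in 8 of the 17 MMP genes with a promoter, all in the cluster on chromosome 9, and lay 35 bases before the start of Mmp13 and 63 before that of Mmp10. The promoters of Mmp13 and Mmp10 held 43.7% and 37.7% G and C, against a median of 52.7% over all promoters. The part of base composition in the share with the motif was not tested. None of the 13 genes with the motif was called (-0.17 to 0.33 log2), and 12 of them lay below the background mark. The SOX core was found in 8.77% of member promoters, against 10.7% of all, and among the called genes it lay 228 bases before the start of Timp1. The NR5A1 site was found in 1.75% of member promoters, against 1.56%. A match is a description of the letters, not a site shown to be bound, and these windows leave out more distant sequence.

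Among the inhibitors, Timp1, which blocks most secreted MMPs and ADAM10, fell. It measured 9.34, 8.95 and 9.31 log2 on wild types 1, 2 and 5, and 8.03, 8.41 and 8.23 on mutants 3, 4 and 6. Every mutant array lay below every wild-type array. The fall was 0.98 ± 0.15 log2, 1.97-fold (limma adjusted p = 0.00633). Timp3, a matrix-bound inhibitor that also acts on ADAM17 and on ADAMTS enzymes, had a wild-type mean of 10.31 ± 0.14 log2 and a mutant mean of 10.01 ± 0.19 (SD, n = 3; limma adjusted p = 0.277), and its groups overlapped. Timp2, which takes part in the activation of pro-MMP2 at the cell surface, gave wild-type values of 9.48, 9.49 and 9.49 log2 and mutant values of 9.42, 9.28 and 9.20, without overlap. Its difference of -0.19 log2 (95% interval -0.44 to 0.06) did not pass (adjusted p = 0.409). Timp4 lay below the background mark in both groups, at 6.37 and 6.34 log2. All 4 differences were below 0, but that of Timp4 changed sign when 1 array was left out (up to 0.09 log2).

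The proteoglycan-cutting ADAMTS enzymes contained the largest fall among the 83 genes. Adamts5, an aggrecanase that also cuts versican, measured 8.15, 8.09 and 7.73 log2 on wild types 1, 2 and 5, and 6.67, 7.12 and 6.41 on mutants 3, 4 and 6. The groups did not overlap, and mutants 3 and 6 lay at or below the background mark; RMA values near background understate differences. It fell by 1.26 ± 0.19 log2, 2.39-fold (limma adjusted p = 0.00588), by 0.88 on mutant 4 and by 1.32 and 1.58 on mutants 3 and 6 against the wild-type mean. Adamts1, its neighbour on chromosome 16 and an enzyme known for its part in ovulation, measured 8.53 ± 0.04 and 8.66 ± 0.15 log2 (SD, n = 3 each), a difference of 0.13 (95% interval -0.14 to 0.39; adjusted p = 0.638). That the neighbours differ from each other in their response was not tested. Adamts9, a versican-cutting enzyme of the same group, is read by 6 probe sets, which share the same RNA and are not replicates. All 6 were lower in the mutant without overlap, from -0.77 to -0.44 log2, and 3 of them passed (limma adjusted p of 0.0236, 0.0468 and 0.0477). The brightest, by which the gene is counted here, did not pass (-0.44 log2, limma adjusted p = 0.072). Its wild-type values were 10.66, 10.72 and 10.50 log2 and its mutant values 10.15, 10.33 and 10.08. The mean of the 6 probe sets did pass (-0.63 log2, adjusted p = 0.0211). Adamts9 was called in 4 of 16 alternatives, that mean among them. It was called in 0 of the 6 that left 1 array out (adjusted p of 0.0874 to 0.217). In the class, 1 of 7 genes fell (where 4.3% of all genes fell), 0 rose and 6 did not pass.

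The 2 measured procollagen N-proteinases, which trim the amino ends of fibrillar procollagens, gave no call at their brightest probe sets. Adamts2, of the same class, had no single-gene probe set under that symbol and was not read. Adamts3, which also processes VEGF-C, had means of 7.53 ± 0.09 log2 (wild type) and 7.74 ± 0.08 (mutant; SD, n = 3; limma adjusted p = 0.357). All of its 16 probe sets were higher in the mutant, by 0.07 to 0.55 log2, and 1 passed (6.86 and 7.41 log2, adjusted p = 0.0363); 7 of the 16 lay below the background mark. Adamts14 measured 7.04 and 7.18 log2 (adjusted p = 0.577).

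**Figure D2:**
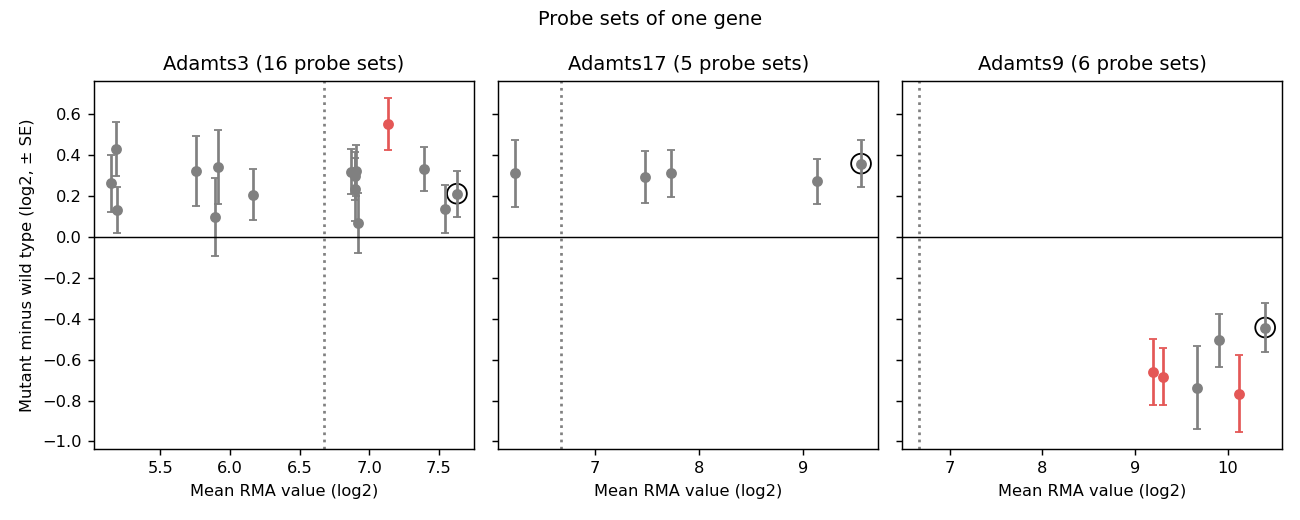
Mutant minus wild-type difference (log2, bars are SE) against the mean RMA value for each probe set of Adamts3, Adamts17 and Adamts9, with called probe sets in red, the brightest circled and the background mark dotted. All probe sets of a gene lie on the same side of 0, with 1 of 16, 0 of 5 and 3 of 6 called.

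The remaining ADAMTS genes held the largest rise. Adamts19, an enzyme without a settled substrate that is known for higher expression in the fetal ovary than in the testis, measured 7.53, 7.33 and 6.90 log2 on wild types 1, 2 and 5, and 9.03, 8.25 and 9.0 on mutants 3, 4 and 6. Each mutant value exceeded each wild-type value, and mutant 4 was the lowest of the mutants, 1.0 log2 above the wild-type mean against 1.78 and 1.74. The rise was 1.51 ± 0.23 log2, 2.84-fold (limma adjusted p = 0.00617), and 1.37 log2 without mutant 3, the array with high Xist (adjusted p = 0.0321). Adamts17, mutated in a syndrome of short stature and lens displacement, was higher at all 5 probe sets, by 0.27 to 0.36 log2, and none passed; its brightest measured 9.37 ± 0.09 and 9.73 ± 0.09 log2 (SD, n = 3 each; adjusted p = 0.117). Adamts16, a gene of the embryonic gonad and kidney, gave wild-type values of 9.54, 9.22 and 9.36 log2 and mutant values of 9.29, 8.96 and 8.85. Its groups overlapped, and the difference of -0.34 log2 did not pass (adjusted p = 0.253). In this class 1 of 9 genes rose (where 2.64% of all genes rose), 0 fell and 8 did not pass. None of the 5 ADAMTS-like genes, whose products lack a protease domain and bind fibrillin-rich matrix, was called (0 had an unadjusted p under 0.05), and the 2 with the highest means were Adamtsl4 (7.55 and 7.60 log2) and Adamtsl2 (7.44 and 7.33).

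Of the ADAM sheddases, Adam12, an enzyme of fetal mesenchyme that releases HB-EGF and cuts IGF-binding proteins, fell. It measured 8.32, 8.22 and 8.10 log2 on wild types 1, 2 and 5, and 7.51, 7.63 and 7.25 on mutants 3, 4 and 6. The groups did not overlap, and the fall was 0.75 ± 0.13 log2, 1.69-fold (limma adjusted p = 0.0122). Without wild type 1 the call was lost (-0.70 log2, adjusted p = 0.0667). The main sheddases of Notch, adhesion proteins and EGF-family ligands were not called. Adam10 read 10.87, 10.65 and 10.97 log2 on the wild-type arrays and 11.11, 11.05 and 11.38 on the mutant arrays, without overlap (0.35 ± 0.14 log2, adjusted p = 0.199). Adam17 measured 9.77 ± 0.10 and 9.75 ± 0.07 log2 (SD, n = 3 each; 95% interval of the difference -0.27 to 0.24). In the class 1 of 9 fell (where 4.3% of all genes fell), 0 rose and 8 did not pass.

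Adam22 rose. It is one of 3 ADAM proteins, with ADAM11 and ADAM23, that lack protease activity and act in the nervous system, where ADAM22 and ADAM23 are receptors of LGI1. Its values were 6.60, 6.53 and 6.35 log2 on wild types 1, 2 and 5, and 7.34, 7.32 and 7.23 on mutants 3, 4 and 6. The wild-type values lay below the background mark and the mutant values above it, so the rise of 0.81 ± 0.11 log2, 1.75-fold (limma adjusted p = 0.00436), is measured from the level of background. Without wild type 5 and mutant 4 together it did not pass (0.72 log2, adjusted p = 0.0584). Adam23 measured 7.65 ± 0.08 and 7.42 ± 0.29 log2 and Adam11 7.22 ± 0.14 and 7.17 ± 0.13 (SD, n = 3 each), neither called. The 22 remaining ADAM genes, most of them genes of germ cells, sperm or epididymis, gave no call. An unadjusted p under 0.05 was found for 3 of them, and for 677 of all 6935 genes below the background mark. Of the 22, 21 lay below that mark. Adam1a was above it (6.98 and 6.80 log2, with overlap), and next by mean came Adam21, below it (6.26 and 6.39). Several are near-identical neighbours on chromosome 8, such as Adam26a and Adam26b, whose probe sets cannot be taken as separate genes with certainty.

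Of the MMPs, Mmp2, a gelatinase of stromal cells that cuts denatured collagen and type IV collagen, fell. It measured 11.34, 11.23 and 11.33 log2 on wild types 1, 2 and 5, and 10.83, 10.80 and 10.50 on mutants 3, 4 and 6. The groups did not overlap, and the fall was 0.59 ± 0.13 log2, 1.5-fold (limma adjusted p = 0.0269). This call was the least stable of the 6, since it was lost whichever 1 array was left out (adjusted p of 0.0536 to 0.111, 0.0536 being without mutant 3) and after a further quantile normalization (0.068). Mmp14, the membrane enzyme that activates pro-MMP2, read 10.83, 10.74 and 11.09 log2 on the wild-type arrays and 10.84, 10.88 and 11.18 on the mutant arrays. The groups overlapped, and the 95% interval of the difference was -0.24 to 0.40 log2. Mmp9, the other gelatinase, measured 6.91 ± 0.08 and 6.84 ± 0.22 log2 (SD, n = 3 each), close to background.

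Mmp11, a stromelysin of tissue remodelling that is cleaved by furin, was lower on every mutant array than on every wild-type array, with wild-type values of 9.71, 9.69 and 9.43 log2 and mutant values of 9.24, 9.26 and 8.89. The difference of -0.48 ± 0.14 log2 did not pass (limma adjusted p = 0.0932), and passed with arrays 5 and 6 as a term in the fit (adjusted p = 0.0193). Mmp16, a membrane-type enzyme, Mmp23 and Mmp28 measured 7.30 and 7.38, 7.46 and 7.67, and 7.31 and 7.41 log2 in wild type and mutant, and none was called. Mmp15, also of the membrane type, had no single-gene probe set under that symbol and was not read. On chromosome 9, 10 neighbouring MMP genes, among them the collagenases Mmp13 and Mmp8 and the stromelysin Mmp10, lay below the background mark, with means of 3.87 to 6.42 log2. Mmp13 measured 6.03 and 6.21, Mmp8 4.69 and 4.86, and Mmp10 6.38 and 6.46 log2, so these data say little about that cluster. Of 22 MMP genes 1 fell (4.55%, where 4.3% of all genes fell), 0 rose and 21 did not pass, and 13 of the 22 lay below the background mark.

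Genes that act with these proteases were taken from 3 lists, chosen with earlier results of these data known. The shares called below describe the lists and are no test of them. Of 65 measured genes in the lists 57 lay above the background mark. Of all genes above the mark, 3.47% rose and 6.11% fell. Of 22 partners in activation and inhibition, 2 rose (9.09%, where 2.64% of all genes rose), 3 fell (13.6%, where 4.3% fell) and 17 did not pass (median -0.02 log2, against 0.00 over all genes). Tspan15, a tetraspanin that carries ADAM10 to the cell surface and steers it to N-cadherin, fell from 10.08 ± 0.20 to 8.72 ± 0.41 log2 (SD, n = 3 each; limma adjusted p = 0.0052). Sdc4, a cell-surface proteoglycan that ADAMTS and MMP enzymes bind or shed, fell by 1.15 log2, and Pcsk5, a proprotein convertase, by 0.99. Papln, an ADAMTS-like inhibitor of a procollagen N-proteinase, rose by 0.79 and the convertase Pcsk6 by 0.66 log2. Furin, the convertase that activates most of these enzymes (0.22 log2), and Reck, a membrane-bound MMP inhibitor (-0.05), are named after their values were seen and did not pass. The call of Pcsk6 was lost without mutant 3, without mutant 4 and without each of the wild-type arrays in turn (adjusted p up to 0.0851), and that of Pcsk5 without wild type 1 (0.0616). Without wild type 5 and mutant 4 together, the calls of Pcsk6 (0.164) and Papln (0.0591) were lost.

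Of 20 measured substrates of the sheddases, 3 rose and 3 fell (15% each, against the same 2.64% and 4.3% of all genes) and 14 did not pass (median 0.04 log2). Kitl, the ligand of the KIT receptor on germ cells, measured 9.51, 9.15 and 9.18 log2 on wild types 1, 2 and 5 and 11.03, 10.99 and 11.36 on mutants 3, 4 and 6. Those groups were far apart, a rise of 1.85 ± 0.15 log2, 3.61-fold (limma adjusted p = 0.000323). Ereg, an EGF-family ligand, and Cd44, the hyaluronan receptor, were called higher (adjusted p = 0.00807 and 0.00177), but their means lay below the background mark in both groups, at 5.53 and 6.53 log2 for Ereg and 5.64 and 6.60 for Cd44. Jag1, a Notch ligand, fell by 1.68, Erbb4, a receptor of neuregulins and HB-EGF, by 1.21, and Cdh1, E-cadherin, by 0.98 log2. The call of Cdh1 was lost without wild type 1 (adjusted p = 0.0856) or wild type 2 (0.0636), and without wild type 5 and mutant 4 together (0.0619). Notch1 and Notch2, named after their values were seen, did not pass (-0.16 and -0.05 log2).

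Of 23 measured matrix substrates 10 fell (43.5%, where 4.3% of all genes and 6.11% of those above the mark fell), 2 rose (8.7%) and 11 did not pass, with a median of -0.34 log2. Vcan, versican, a substrate of ADAMTS1, ADAMTS5 and ADAMTS9, measured 10.54, 10.47 and 10.34 log2 on wild types 1, 2 and 5, and 8.39, 9.37 and 8.56 on mutants 3, 4 and 6. All mutants lay lower, mutant 4 least so, and the fall was 1.68 ± 0.23 log2, 3.20-fold (limma adjusted p = 0.00331). Bgn, the small proteoglycan biglycan, fell by 0.98, Col1a2 by 0.81, and the basement membrane chains Col4a1 and Col4a2 by 0.90 and 0.84 log2. Fbn2, fibrillin-2, rose by 0.81. The 10 falling genes became 3 without wild type 1 or mutant 3, 4 without wild type 2 and 7 without wild type 5 or mutant 6, and 8 without mutant 4. Calls of Col4a1 and Col4a2 were lost without wild type 1 (adjusted p = 0.116 and 0.102), wild type 2 (0.0852 and 0.0714) or mutant 3 (0.0992 and 0.0846), that of Col4a1 also without mutant 6 (0.052), and that of Fbn2 without wild type 5 and mutant 4 together (0.0683). Interstitial, Sertoli and Leydig markers fell as well (list means above), as did Acta2 (by 1.51 log2) and Tagln (by 1.07) of 4 peritubular and smooth muscle markers, of which Myh11 rose. The peritubular list means were 8.61 to 8.72 log2 on wild-type arrays and 7.89 to 8.34 on mutant arrays. The part of these cell types in the matrix differences was not tested.

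**Figure D3:**
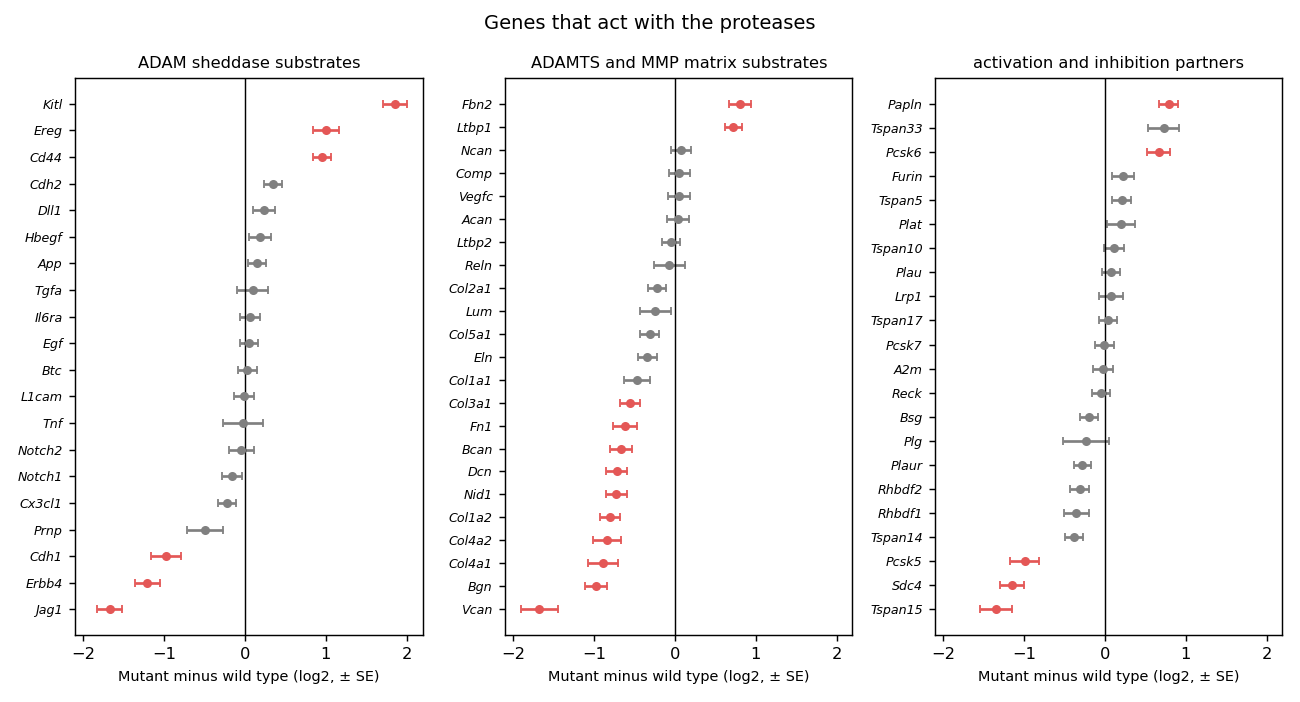
Mutant minus wild-type difference (log2, bars are SE) of each measured gene in 3 lists, with genes past a limma adjusted p of 0.05 in red. Called genes number 6 of 20 sheddase substrates, 12 of 23 matrix substrates and 5 of 22 partners, and the lowest value is that of Vcan (-1.68 log2).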

How the data were processed

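RNA of pooled gonads was hybridised on 6 Affymetrix arrays, 1 per pool, from 300 ng of total RNA. The deposited log2 values came from RMA, per the submitters' processing notes, with settings not given in the sources used here. RMA equalises the arrays' distributions, so a general change in RNA content cannot be seen, and it compresses differences near background.

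Of 34760 rows, the 6573 below the lowest annotated identifier were left out as controls. The other 28187 probe sets were fitted with lmFit and eBayes of limma 3.58.1 (R 4.3.3). Tests were 2-sided moderated t tests. Their degrees of freedom were the 4 residual ones plus prior ones that eBayes estimates from the spread over all probe sets. Benjamini-Hochberg adjustment ran over all 28187 probe sets, with a threshold of 0.05. Errors of differences are moderated standard errors. Genes were named from probe sets with 1 annotated gene; 2 probe sets with a member among several genes were left out, and all 83 members matched the GRCm38.p6 gene table. The background mark was the 95th percentile of the means of 1208 receptor probe sets. The code was tested on simulated data. With 3 arrays a group, their number limits the precision, and the groups share no array number.

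Members and lists were chosen with earlier results of these data known. Named were all called members, the TIMPs, the 2 members with the highest means in each class, uncalled members past 1.5-fold (there were 0), the 6 largest called changes of each related list, and Sox9. Results were recomputed with arrays scaled to a common median, with a further quantile normalization, a filter on dim probe sets, eBayes with trend and robust, array weights, arrays 5 and 6 as a term, each array left out, the mean of a gene's probe sets, and a threshold of 0.01. After the values were seen, arrays 1 to 4 alone and a fit without wild type 5 and mutant 4 were added. A planned search of protein sequences was not run. Python 3.11.15 and matplotlib 3.10.9 were used for tables and figures.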

Additional observations from a re-analysis of the deposited data

How the results depend on the processing

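Over the 83 protease and TIMP genes, 2 rose under each alternative but the fit without wild type 5 and mutant 4, which gave 1 (Adamts19). The 4 that fell became 2 at a threshold of 0.01 and 2 to 3 with 1 array left out, and up to 6 elsewhere, when Adamts9, Mmp11 or Adamts7 (chosen after its values were seen) were added. Adamts5, Timp1 and Adamts19 were called in all 16 alternatives, Adam22 in 15, Adam12 in 14 and Mmp2 in 6; no called gene changed sign. Over all genes, the 527 higher became 199 at 0.01, 820 with arrays 5 and 6 as a term, 199 without wild type 5 and mutant 4, and 262 to 546 with 1 array left out. The 857 lower became 328 at 0.01, 1241 with arrays 5 and 6 as a term and 513 on arrays 1 to 4 alone. They became 405 without wild type 5 and mutant 4, and 330 to 746 with 1 array left out. Of the related genes 23 were called, 12 at 0.01 and 13 to 21 with 1 array left out. Apart from fewer samples or the stricter threshold itself, the cause of these shifts was not tested. The median difference of all genes, 0.00 log2, was -0.02 with a common median and -0.01 after quantile normalization. For the 42 members below the background mark, and for genes with 1 group there, the signal limits what a difference of 0 can show.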
